A study of Mus musculus with 24 samples.

Results

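The 31 mouse microRNAs (miRNAs) numbered miR-8090 to miR-8120 were followed on 24 one-colour Agilent arrays, out of 1881 mouse miRNAs on each array. They were chosen by their number alone, with any letter or arm, a rule that uses no measured value. Liver RNA of 3 mice, which the labels number 7, 9 and 10, was hybridized, with 1 array per mouse in each of 8 groups. The study's methods describe its mice as male C57BL6 animals of an Il1a knock-out strain where they describe the storage time course, and give no strain for these livers. Each liver was cut into parts that were either stabilised at once (0 h) or left at room temperature for 96 h before stabilisation.

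RNA including small RNAs was isolated from tissue at 0 h and at 96 h, each with and without a DNase digestion on the column. RNA depleted of small RNAs was isolated from unstored tissue with DNase, and was hybridized untreated or after incubation with 0 U, 0.026 U or 0.67 U RNase and a second isolation that kept small fragments. The isolation for depleted RNA lowers the amount of small RNA and does not remove it. The RNA integrity number (RIN), which falls as ribosomal RNA breaks down, was 8.8 to 9.0 at 0 h, 2.3 to 2.5 at 96 h, 9.2 to 9.4 in depleted RNA, 9.0 to 9.2 after 0 U, 6.0 to 7.0 after 0.026 U and 2.4 to 2.9 after 0.67 U. All groups are bulk liver, so fewer cells of a type and less RNA per cell cannot be told apart.

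MiRNAs are short RNAs cut from hairpin precursors by the nuclease DROSHA in the nucleus and by DICER in the cytoplasm. The mature strand is loaded into an Argonaute protein and guides it to messenger RNAs, mostly by pairing of the seed, the bases just behind its 5′ end. Numbers were given in order of registration, so that high numbers belong to miRNAs that were described late, mostly from deep sequencing. On the array a miRNA is read by DNA oligonucleotides complementary to it, and the labelling step joins a dye to the 3′ end of RNA present in the sample.

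RefSeq (GRCm38.p6) held a mature sequence for 29 of the 31 members. The sequences shown first belong to the 5 members detected on all 24 arrays, and show what the probes with a signal in every group were made to catch. All are given 5′ to 3′ with the seed, bases 2 to 8, in capitals.
mmu-miR-8101: gGCGAGCGgagccggaggagcc
mmu-miR-8102: uCACGCGGgggaacgaggaaga
mmu-miR-8105: aGGCGACUggcgagacccgaag
mmu-miR-8110: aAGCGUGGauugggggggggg
mmu-miR-8117: gCUCGUGUggaacagaagggg
The next set holds the other 13 matched members detected on all 3 arrays of at least 1 group, in which most of the changes described here were measured.
mmu-miR-8090: gAAGCGCAguggaggucugu
mmu-miR-8093: uUGGGGAGcagagcaugagug
mmu-miR-8094: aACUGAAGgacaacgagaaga
mmu-miR-8095: aAAGGAUUcugcugucuguccc
mmu-miR-8099: cCAAGGCGugggaaagguugu
mmu-miR-8100: aGGAGGAAagggagcaagcaggu
mmu-miR-8103: uCUCCUGUucucuguucuccc
mmu-miR-8107: uGGAAACUaguggcugggaca
mmu-miR-8109: gCGCCGCGugccggccgcggg
mmu-miR-8112: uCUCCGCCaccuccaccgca
mmu-miR-8113: cAGGAGAGucaggggcaaguag
mmu-miR-8114: uCACCCAUcuccucuccgccu
mmu-miR-8119: gAGGAGAGggagcuaggguc
miR-8097 and miR-8108 were also detected on all 3 arrays of a group. The 29 sequences carried 28 distinct seeds. The single seed shared between members was that of miR-8113 and miR-8119, which miR-7012-5p and miR-7057-5p carry too.

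The members were rich in G. The median share of G was 42.9% in the members against 26.1% in the 1579 other miRNAs of the array with a matched sequence, and the median share of G and C together was 60.0% against 52.2%. Among the 794 other matched miRNAs with numbers of 3000 and above, the median shares were 28.6% for G and 55.0% for G and C. A run of at least 4 G stood in 6 of the 29 members (20.7%), in 15.1% of the other matched miRNAs with numbers of 3000 and above and in 11.1% of all other matched miRNAs. Those runs are shown here in capitals, since the brightest members are among them.
mmu-miR-8110: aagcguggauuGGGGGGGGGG
mmu-miR-8102: ucacgcGGGGGaacgaggaaga
mmu-miR-8093: uuGGGGagcagagcaugagug
mmu-miR-8113: caggagagucaGGGGcaaguag
mmu-miR-8116: aaggauccGGGGcuaguuggc
mmu-miR-8117: gcucguguggaacagaaGGGG
The run of miR-8110 is 10 bases long and makes up the whole 3′ end of that sequence. These are descriptions of the sequences, without a test.

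In GRCm38.p6 the mature sequence of 21 of the 29 members lay within a protein-coding gene, on the same strand as the gene in 20 of them. The same-strand share was 69.0% against 51.4% for all other matched miRNAs and 66.0% for the others with numbers of 3000 and above. miR-8101 (chr11:102230103-102230124, minus strand) lay in Hdac5, a histone deacetylase gene, within the window from 250 bases before to 50 bases after its start. miR-8109 (chr8:85700935-85700955, plus strand) lay in such a window of Neto2, which encodes an auxiliary subunit of glutamate receptors. Windows of this kind held 4 of the 29 members (13.8%) and 2.72% of the other matched miRNAs. miR-8110 (chr8:89024791-89024811, plus strand) lay in no annotated gene, and miR-8117 (chr5:50252823-50252843, plus strand) lay within no protein-coding gene. miR-8093 (chr2:32687706-32687726, minus strand) lay in Fpgs, which encodes folylpolyglutamate synthase, and miR-8114 (chr1:153899989-153900009, plus strand) in Glul, the gene of glutamine synthetase. miR-8099 had 2 loci, on chromosomes 3 and 12, and its locus on chromosome 3 lay in Lysmd1 on the opposite strand.

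The summed signal of detected miRNAs ran from 55237 to 163493 intensity units at 0 h, from 187378 to 362324 at 96 h, from 7125 to 10043 in depleted RNA without active RNase and from 36325 to 177642 after RNase. The liver marker miR-122-5p was detected on every array, at 6767 to 13686 in the 6 arrays at 0 h. miR-192-5p and miR-194-5p were detected on all 6 as well, the muscle and neural markers (miR-1a-3p, miR-133a-3p, miR-206-3p, miR-9-5p and miR-124-3p) on none, and the blood cell markers miR-451a, miR-144-3p and miR-142a-3p on all 6. All arrays of 1 animal lay on 1 slide and were scanned together, and these 3 factors cannot be told apart. For mouse 9 the labels contradict each other on which array had the lower and which the higher RNase dose. The descriptions were followed, and the titles were used as an alternative. By the descriptions the labelled RIN of mouse 9 was 6.0 at the lower and 2.4 at the higher dose, against 7.0 and 6.9 at the lower and 2.9 and 2.6 at the higher in mice 7 and 10. Among the arrays at 96 h with DNase, that of mouse 10 stood apart, with the least summed signal and the fewest miRNAs detected of the 3.

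In fresh liver few of the members gave a signal. On the 6 arrays at 0 h, 24 of the 31 members were never detected, and each array with DNase detected 7 members. At 96 h, 20 to 22 members were detected with DNase and 19 or 20 without. In depleted RNA 6 or 7 were detected, after 0 U 7, after 0.026 U 7, 14 and 9 in mice 7, 9 and 10, and after 0.67 U 13 or 14. The member counts at 96 h did not overlap those of any other group. Counts over the whole array, members included, were likewise separate. At 96 h 582 to 707 miRNAs were detected, against at most 408 on any other array. The mean share of members detected with DNase went from 22.6% at 0 h to 68.8% at 96 h. For the other 1850 miRNAs of the array it went from 15.8% to 33.6%, and for the 905 others with numbers of 3000 and above from 11.1% to 37.8%.

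**Figure D1:**
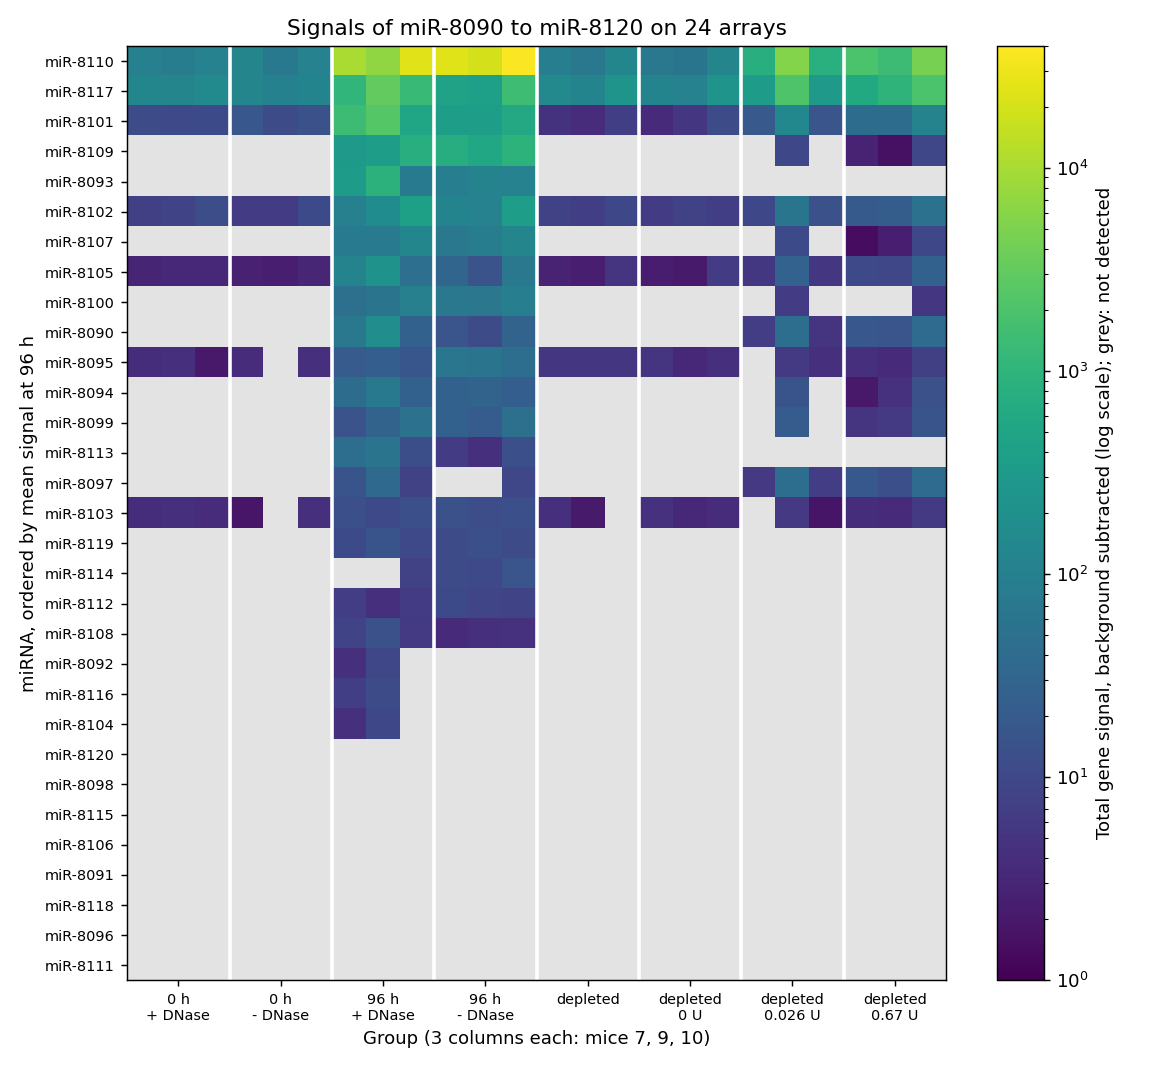
Total gene signal of each of the 31 members (rows, ordered by mean signal at 96 h) on each of the 24 arrays (columns, 3 mice per group), on a log colour scale, with grey where the miRNA was not detected. At 96 h 20 to 22 members with DNase and 19 or 20 without were detected, against at most 7 at 0 h.

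**Figure D2:**
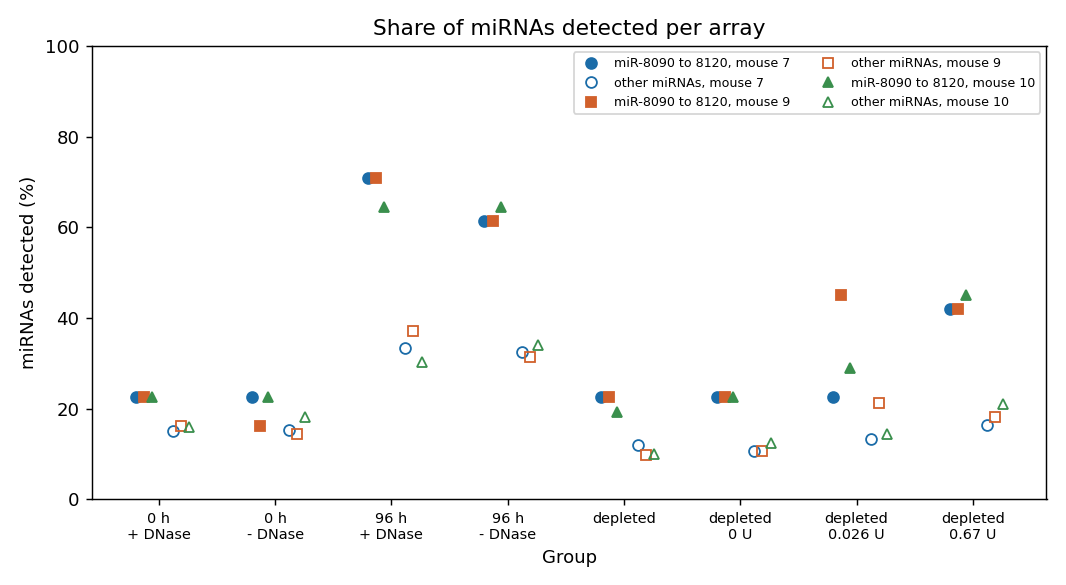
Percentage of miRNAs detected on each array, with filled symbols for the 31 members and open symbols for the 1850 other miRNAs, by group and mouse. The members' mean share was 22.6% at 0 h with DNase and 68.8% at 96 h with DNase.

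The members fell into 3 classes by detection. miR-8101, miR-8102, miR-8105, miR-8110 and miR-8117 were detected on all 24 arrays, miR-8095 on 22 and miR-8103 on 21. miR-8091, miR-8096, miR-8098, miR-8106, miR-8111, miR-8115, miR-8118 and miR-8120 were detected on none. The other 16 were detected on 2 to 12 arrays, and each of them was undetected at 0 h and detected on at least 2 arrays at 96 h. No member was detected in other groups without being detected at 96 h.

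A miRNA was tested when at least 5 of the 24 arrays detected it, which kept 631 miRNAs and 19 members. Of these 19, 12 were never detected at 0 h, and miR-8093, miR-8108, miR-8112, miR-8113 and miR-8119 passed through the 6 arrays at 96 h alone. Such a member could hardly pass without differing between 0 h and 96 h, so the counts and medians of members below are descriptions. miR-8094, miR-8099, miR-8100, miR-8107 and miR-8109 were also detected on RNase arrays, but on fewer than 5, so they too needed the 96 h arrays to pass. For both sets of members the changes that involve storage are given without a p. For miR-8090 and miR-8097, also never detected at 0 h, the adjusted p of such changes is not independent of this filter. miR-8092, miR-8104 and miR-8116, each detected on the 96 h arrays with DNase of mice 7 and 9 and nowhere else, and miR-8114, detected on 4 arrays at 96 h, were not tested. miR-8114, in Glul, gave 11.2, 10.3 and 16.4 in mice 7, 9 and 10 at 96 h without DNase, against at most 0.189, not detected, at 0 h without DNase. The groups were separate, and the stored arrays were at least 4.56-fold above the fresh ones on the scaled arrays.

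Storage was examined first with DNase, 96 h against 0 h, on the scale of the normalized values (glog2, close to log2 at high signal). Of the 19 members tested, 16 were higher and none was lower at an adjusted p under 0.05 with a change of at least 1. Among all 631 miRNAs tested, 60.4% were called higher and 21.6% lower. The median change was 4.38 in the 19 members and 2.47 in all 631, and 15 of the 16 members called higher lay above the latter. The members' median was the value of miR-8119, which passed the filter through the 96 h arrays alone. With normexp background correction of the spot medians 4 members were called higher. Scaling to a 75th percentile or quantile normalization left 13 to 15 called higher and 1 lower. Normalization brought the arrays at 96 h down relative to those at 0 h. For members detected at both times raw signals thus rose by more than these changes. For members undetected at 0 h this cannot be said, since their raw signals give bounds only.

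Markers of other cells moved with storage as well. The muscle marker miR-133a-3p was detected on all 6 arrays at 96 h, at 9.65 to 14.2, and miR-206-3p on 4 of the 6, at up to 21.6, while miR-1a-3p, miR-9-5p and miR-124-3p were detected on none of the 24 arrays. Of the blood cell markers miR-451a stayed detected on all 6, at 150 to 205, and miR-144-3p was detected on 1 and miR-142a-3p on 2. Their part in the members' changes was not tested.

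miR-8110 became the brightest member. Its signal in mice 7, 9 and 10 was 101, 84.0 and 110 at 0 h with DNase and 10389, 6914 and 25079 at 96 h with DNase. Every stored array lay far above every fresh one, and mouse 10 was the highest. The change was 5.13 ± 0.57 on the glog2 scale (SE, n = 3 mice per group, adjusted p = 7.50e-08), in the same direction in 3 of 3 mice. At 0 h miR-8110 held less of the members' summed signal than miR-8117. At 96 h with DNase it held 46.5% to 87.7% of it, and on the array of mouse 10 and on 2 of the 3 arrays at 96 h without DNase no miRNA of the whole array was brighter. Both of its probes carried the signal, with mean values over the 6 stored arrays of 10651 and 9924.

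With it the members' part of all detected signal rose from 0.261% to 0.467% at 0 h with DNase to 4.10% to 14.3% at 96 h with DNase, and without DNase from 0.148% to 0.212% to 12.02% to 15.7%. The ranges did not overlap. In depleted RNA without active RNase the share was 2.21% to 4.14%, while the members' summed signal there, 192 to 402, overlapped that at 0 h, 196 to 295.

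miR-8117 was the brightest member in fresh liver. Its signals were 127, 126 and 153 at 0 h with DNase and 1072, 3188 and 1262 at 96 h with DNase, without overlap. The change of 1.76 ± 0.54 (adjusted p = 0.00493, 3 of 3 mice) was called, but lay under the median of all miRNAs tested. miR-8102 likewise sat at that median, with 7.36, 8.66 and 12.4 at 0 h and 99.9, 176 and 420 at 96 h, again separate, and a change of 2.48 ± 0.53 (adjusted p = 0.000227).

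miR-8101, at the start of Hdac5, gave 11.5, 10.2 and 10.8 at 0 h and 1409, 2467 and 526 at 96 h with DNase. The groups were wide apart, with mouse 10 the lowest at 96 h, and the change was 4.91 ± 0.51 (adjusted p = 3.07e-08). miR-8105 followed the same order of mice, at 2.99, 3.33 and 3.20 at 0 h and 115, 222 and 48.6 at 96 h, with a change of 3.00 ± 0.48 (adjusted p = 8.02e-06). Most of the signal of miR-8105 at 96 h, 86.4%, came from 1 of its 2 probes, as did 80.3% of that of miR-8102.

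The largest glog2 changes were in members that fresh liver did not show at all. Their values at 0 h come from signals below detection, so these changes cannot be read as folds. For such members the bounds are the only measure of fold, and the glog2 changes do not rank them by it. miR-8093, in Fpgs, was undetected on the 3 arrays at 0 h and gave 347, 922 and 79.8 at 96 h with DNase, at least 98.9-fold more (glog2 change 10.23 ± 0.80). miR-8109 gave 299, 359 and 780, at least 147-fold more than at 0 h (8.21 ± 0.91). Mouse 10 was the lowest for miR-8093 and the highest for miR-8109, and mouse 9 was above mouse 7 in both. A bound of this kind sets the signal at 96 h against a reference on each array at 0 h, on scaled arrays. The reference is the lowest signal detected on that array, or the member's own signal there where that was higher.

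miR-8100, in Adam19, which encodes a membrane metalloprotease, gave 50.9, 58.1 and 99.5 at 96 h with DNase, at least 22.3-fold above fresh liver (9.13 ± 0.67). Of its signal at 96 h, 84.6% came from 1 of its 2 probes. miR-8107, in Nbeal2, a gene needed for platelet granules, gave 76.4, 79.0 and 130, at least 27.5-fold above (4.07 ± 0.53). miR-8090, in Cfap43, a gene of cilia and flagella, gave 70.1, 177 and 26.8, at least 23.3-fold above (7.41 ± 0.61, adjusted p = 2.32e-09). In all of them the stored arrays were separate from the fresh ones, none of which detected the miRNA.

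miR-8099 gave 15.1, 29.1 and 52.4 at 96 h with DNase, at least 9.55-fold above fresh liver (7.67 ± 0.81). All of that signal came from 1 of its 2 probes, and the other had a mean below 0 over the 6 stored arrays. miR-8094, in the RNA helicase gene Ddx39b, gave 42.3, 72.2 and 26.5, at least 14.5-fold above (5.30 ± 0.80). miR-8113, in Cd27, which encodes a receptor of lymphocytes, gave 45.4, 59.6 and 12.8, at least 10.9-fold above (3.79 ± 0.47). Most of its signal at 96 h, 89.9%, came from 1 of its 2 probes.

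The dimmest of the members called higher were near the limit of detection. miR-8097 gave 15.5, 37.7 and 8.0, at least 5.62-fold above fresh liver (3.29 ± 0.59, adjusted p = 3.29e-05). At 96 h without DNase, where it was also called higher, miR-8097 gave 2.66 to 9.37 and was detected on 1 of the 3 arrays. miR-8119, in Lck, the gene of a T cell kinase, gave 10.8, 15.6 and 10.4, at least 4.06-fold above (4.38 ± 1.1). miR-8108 gave 8.71, 13.7 and 5.97, at least 3.00-fold above (6.20 ± 0.80), from 1 of its 2 probes, and the other probe had a mean below 0. miR-8119 and miR-8113, which share a seed, both were detected on every stored array and on no other. The same held for miR-8093, miR-8108 and miR-8112, and the seeds of miR-8093 and miR-8112 occur in no other matched miRNA of the array.

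The 3 members tested that were not called were miR-8095, miR-8103 and miR-8112. miR-8095, in the diacylglycerol kinase gene Dgkg, gave 3.97, 4.10 and 2.07 at 0 h and 21.4, 23.6 and 17.1 at 96 h with DNase, and its change of 0.64 ± 0.24 stayed under the minimum of 1 (95% interval 0.14 to 1.13). miR-8103, in Osbpl7, gave 4.08, 4.23 and 3.85 at 0 h and 13.2, 10.3 and 13.3 at 96 h. Its raw signals were separate and higher after storage, while the normalized change was -0.30 ± 0.28 (95% interval -0.88 to 0.28), and without normalization it was 1.39. miR-8112, in Krcc1, was undetected at 0 h and gave 6.94, 4.20 and 6.35 at 96 h, at least 1.92-fold above, with a normalized change of 0.54 ± 0.30.

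**Figure D3:**
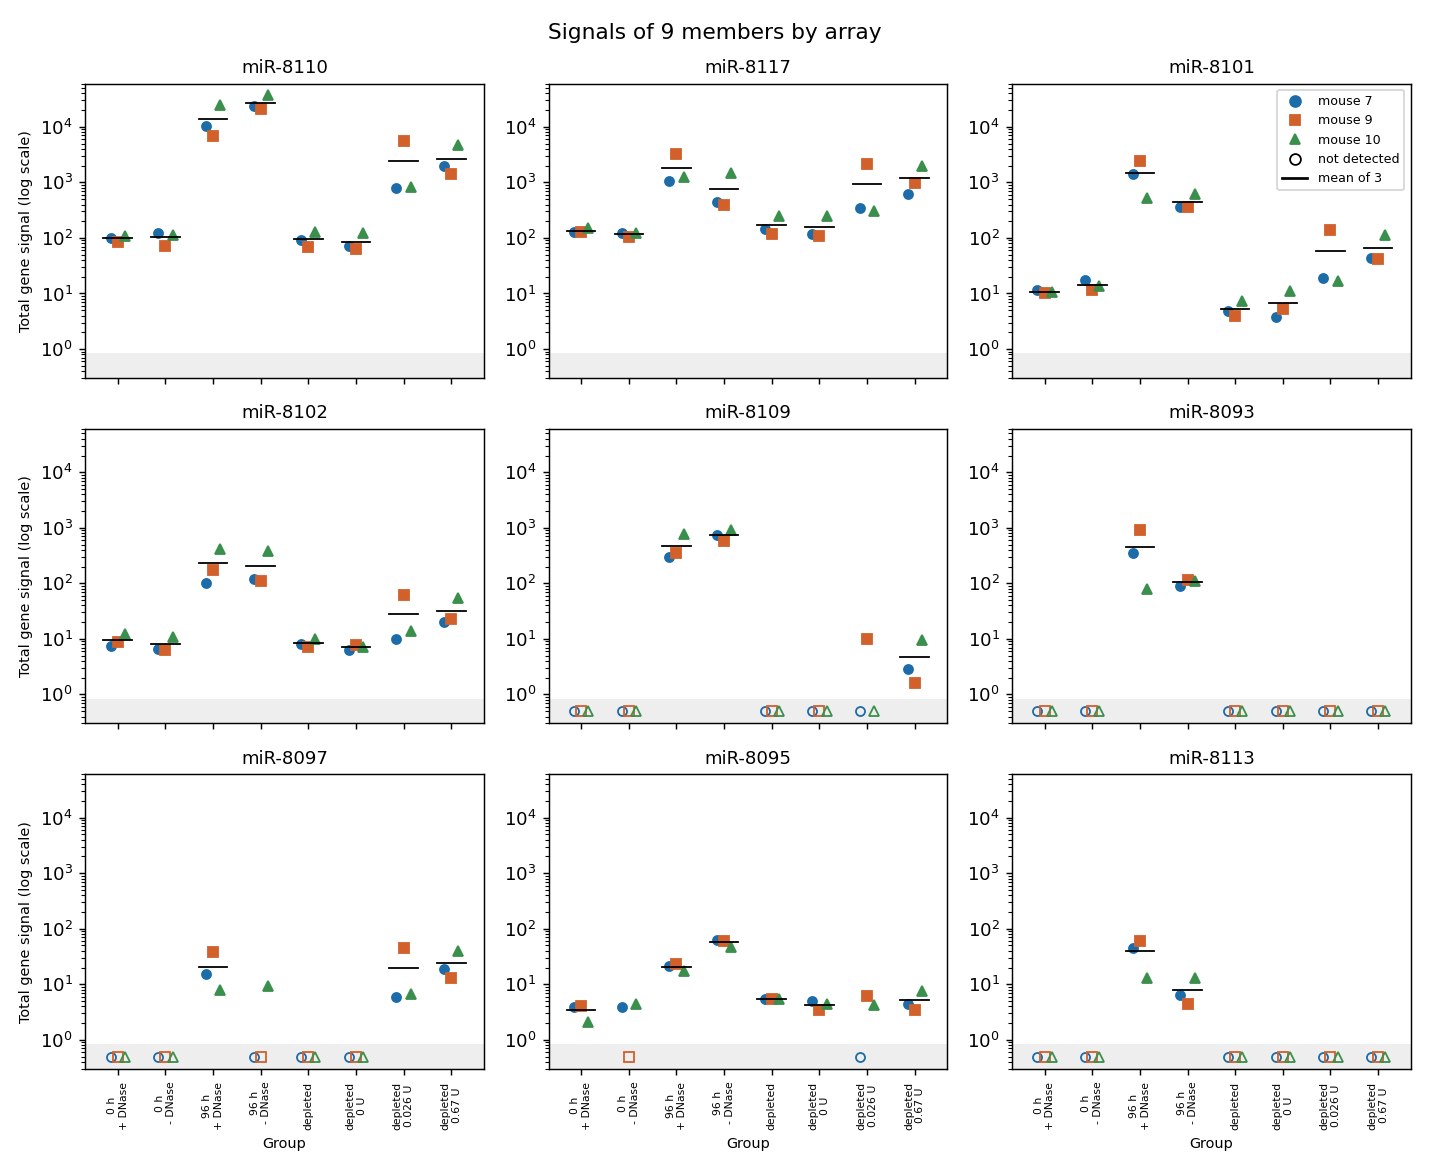
Total gene signal on single arrays for 9 members in the 8 groups, on a log scale, with the mean of 3 mice as a line where all 3 arrays detected the miRNA. Open symbols in the grey band mark arrays on which it was not detected and have no height. miR-8110 lay at 6914 to 25079 at 96 h with DNase against 84.0 to 110 at 0 h.

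Without DNase, storage was compared on separate arrays of the same mice. Of the 19 members tested, 17 were higher and none lower, among 60.5% higher and 23% lower of all 631, with a median change of 3.26 in the members and 2.16 in all. With normexp 2 members were called, and quantile normalization or scaling to the 75th percentile over every miRNA gave 11 or 12 higher and 1 lower. The calls in both storage comparisons covered 15 members, 93.8% of those called with DNase and 88.2% of those called without. Over all miRNAs tested they covered 359, 94.2% and 94.0%. miR-8110 gave 123, 72.1 and 111 at 0 h without DNase and 23478, 20608 and 36981 at 96 h, wholly separate, with a change of 6.35 ± 0.57 (adjusted p = 5.73e-09). miR-8109 gave 731, 579 and 927 at 96 h, at least 270-fold above the fresh arrays, on which it was not detected. miR-8117 gave 125, 103 and 122 at 0 h and 450, 394 and 1475 at 96 h without DNase. Its groups were separate, but the normalized change of 0.77 ± 0.54 was not called (adjusted p = 0.184, 95% interval -0.35 to 1.90).

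Omission of DNase was tested at each time. At 0 h it changed no member, and no miRNA of the 631 (0% called), with 0 members and 30 miRNAs at an unadjusted limma p under 0.05. At 96 h miR-8095 was higher without DNase, and miR-8105 and miR-8113 were lower, among 6.18% higher and 4.6% lower of all 631. miR-8095 gave 63.4, 59.5 and 46.9 at 96 h without DNase against 21.4, 23.6 and 17.1 with it. The groups did not overlap, and the change was 1.52 ± 0.24 (adjusted p = 0.000220, 3 of 3 mice). miR-8113 gave 6.50, 4.40 and 13.2 without DNase against 45.4, 59.6 and 12.8 with it (-1.85 ± 0.47, adjusted p = 0.0142), and miR-8105 gave 32.0, 15.2 and 70.4 against 115, 222 and 48.6 (-1.55 ± 0.48, adjusted p = 0.0422). For both, the groups overlapped through mouse 10.

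Mouse 10 differed from the other mice in this comparison. Over the 19 members its changes ran from -0.74 to 0.94, against -2.35 to 1.74 in mouse 7 and -3.18 to 2.17 in mouse 9. With mouse 10 left out 7 members were called at 96 h (3 higher, 4 lower), with mouse 7 left out none and with mouse 9 left out 1. miR-8110 was higher without DNase in 3 of 3 mice, but not called (1.23 ± 0.57, adjusted p = 0.205). The difference between the 2 storage changes was called for none of the 19 members, 2 of which had an unadjusted limma p under 0.05, and for 1.11% of all 631 miRNAs, 87 of which had one. The closest was miR-8095 (1.32 ± 0.33, adjusted p = 0.0559).

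Depletion of small RNAs was compared with RNA including small RNAs at 0 h with DNase, the same 3 arrays that served as controls for storage with DNase. miR-8090 (2.62 ± 0.61, adjusted p = 0.00169) and miR-8099 (2.36 ± 0.81, adjusted p = 0.0296) were called higher and miR-8107 (-1.56 ± 0.53, adjusted p = 0.0284) lower, among 5.39% higher and 24.4% lower of all 631. None of these 3 members was detected on any array of either group, so the calls rest on signals below detection and have no fold. The brightest members, which both groups detected, were not called. miR-8110 gave 93.3, 68.2 and 128 in depleted RNA (change 0.01 ± 0.57, adjusted p = 0.998, 95% interval -1.17 to 1.20), and miR-8117 gave 147, 120 and 243 (0.34 ± 0.54, adjusted p = 0.770, 95% interval -0.79 to 1.47). Both overlapped the fresh arrays. The raw signals of the liver miRNAs were lower in depleted RNA, without overlap. At 0 h with DNase and in depleted RNA, miR-122-5p ran from 6767 to 12125 and from 2436 to 3157, miR-192-5p from 619 to 926 and from 17.0 to 29.4, and miR-194-5p from 269 to 401 and from 13.8 to 22.9. The blood cell marker miR-451a ran from 217 to 401 and from 2.65 to 7.03. The mock incubation, 0 U against untreated depleted RNA, changed no member by the limma call, and 1.74% of all 631 miRNAs, and 0 members had an unadjusted p under 0.05 against 48 of all 631.

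RNase was tested on depleted RNA, both doses together against 0 U. Of the 19 members 13 were higher, and 44.7% of all 631 miRNAs were called higher. The median change was 2.33 in the members and 0.69 in all miRNAs tested. With normexp 1 member was called, and under scaling to a 75th percentile or quantile normalization 8 to 10 were higher and 2 or 3 lower. All 13 were also among the 16 higher after storage with DNase (81.2% of these), a comparison that used other arrays of the same mice. Of the 282 miRNAs called higher with RNase in all, 269 were also called higher with storage, 95.4% of the former and 70.6% of the latter. At the lower dose 10 members were higher (36.6% of all 631) and at the higher dose 13 (44.8%). Grouped by the titles for mouse 9, 14 members were higher at the higher dose.

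miR-8110 again gave the highest signals, at 70.5, 62.7 and 124 after 0 U, 786, 5549 and 832 after 0.026 U and 1965, 1414 and 4618 after 0.67 U in mice 7, 9 and 10. Every RNase array lay above every array of 0 U, and the change over both doses was 4.10 ± 0.49 (adjusted p = 9.06e-07, 3 of 3 mice). In mice 7 and 10 the array labelled with the higher dose gave more signal, and in mouse 9, whose labels conflict, that labelled with the lower dose did. miR-8117 gave 119, 108 and 245 after 0 U, 340, 2158 and 303 after 0.026 U and 628, 991 and 1982 after 0.67 U, with a change of 2.04 ± 0.47 (adjusted p = 0.00107). Its RNase arrays too were all above those of 0 U.

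miR-8090 and miR-8097 were undetected on the 3 arrays of 0 U and detected on all 6 with RNase. miR-8090 gave 6.80, 46.0 and 4.93 at the lower dose and 17.5, 16.5 and 41.0 at the higher, at least 16.0-fold above 0 U over both (5.39 ± 0.53, adjusted p = 9.12e-08). miR-8097 gave 5.93, 45.4 and 6.74 and then 18.6, 13.1 and 39.9, at least 15.9-fold above (4.82 ± 0.51, adjusted p = 2.18e-07). The array of mouse 9 at 0.026 U by its description was the highest of all 6 for both.

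miR-8101 gave 3.76, 5.27 and 11.3 after 0 U, 19.2, 139 and 16.7 after 0.026 U and 42.8, 41.7 and 112 after 0.67 U, without overlap (2.33 ± 0.44, adjusted p = 0.000148). miR-8102 gave 6.28, 7.63 and 7.12, then 9.93, 62.0 and 13.7 and then 19.9, 23.2 and 54.1, also without overlap (1.29 ± 0.46, adjusted p = 0.0262). miR-8105 gave 2.29, 2.19 and 6.55, then 5.52, 27.6 and 5.26 and then 10.6, 9.35 and 26.6, and here mouse 10 after 0 U overlapped the lower dose (1.18 ± 0.42, adjusted p = 0.0249). The direction of miR-8102, miR-8105 and miR-8117 turned under quantile normalization, to -0.21, -0.0615 and -0.38, none of them called.

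The other 6 members called higher were undetected after 0 U, and 5 of them were detected on part of the RNase arrays. miR-8094, miR-8099, miR-8107 and miR-8109 were detected on all 3 arrays of 0.67 U and on 1 array of 0.026 U, that of mouse 9. The bound at 0.67 U against 0 U was at least 4.77-fold for miR-8094, 7.44-fold for miR-8099, 3.07-fold for miR-8107 and 3.33-fold for miR-8109. Their changes over both doses were 3.98 ± 0.69 for miR-8094 (adjusted p = 6.52e-05), 4.69 ± 0.70 for miR-8099 (adjusted p = 1.28e-05), 2.82 ± 0.46 for miR-8107 (adjusted p = 3.40e-05) and 3.73 ± 0.79 for miR-8109 (adjusted p = 0.000485). miR-8100 was detected on 2 RNase arrays, at 6.27 and 5.45 (4.98 ± 0.58, adjusted p = 6.17e-07). miR-8119 was detected on none of them, so its call (3.04 ± 0.95, adjusted p = 0.0117) rests on signals below detection.

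The members thus differed in how the storage change stood against the RNase change. The difference of the changes was tested in the same fit, and 10 of the 19 members had a higher signed change with storage and none with RNase, 4 of them detected on stored arrays alone, among 36.5% and 22.3% of all 631. The median difference was 1.34 in the members and 0.91 in all. With mouse 10 left out 6 members were called.

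miR-8093 stood at one end. It gave 79.8 to 922 at 96 h with DNase and 91.3 to 114 without, and was undetected on all 12 arrays of depleted RNA, with or without RNase. Its RNase change was 0.54 ± 0.69 (adjusted p = 0.607), and the difference was 9.69 ± 1.06, in the same direction in 3 of 3 mice. miR-8113 (difference 3.10 ± 0.63), miR-8108 (4.60 ± 1.05) and miR-8112 (1.12 ± 0.40) likewise were detected on stored arrays alone. For miR-8112 the changes were 0.54 with storage and -0.58 with RNase, neither of them called.

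miR-8100 (4.15 ± 0.88), miR-8109 (4.49 ± 1.20) and miR-8101 (2.58 ± 0.67, adjusted p = 0.00259) changed in both comparisons, and more with storage. So did miR-8105, with a difference of 1.82. miR-8090 and miR-8099 were called too, with differences of 2.02 and 2.98. Both were undetected at 0 h and after 0 U, as were miR-8100 and miR-8109, so these differences rest in part on signals below detection. At 96 h with DNase and after 0.67 U the mean glog2 values were 4.73 and 4.86 for miR-8090, and 3.48 and 3.42 for miR-8099. For miR-8090 and miR-8099 the difference turned to -1.16 and -0.87 when arrays were scaled to the 75th percentile of the miRNAs detected on all of them. Under quantile normalization it turned to -1.17 and -0.63, and miR-8090 was then called in the other direction (limma adjusted p = 0.0301). At the other end miR-8097 had the larger change with RNase in 3 of 3 mice (difference -1.53 ± 0.78, adjusted p = 0.0985), and for miR-8117 the difference was small against its error (-0.27 ± 0.71, adjusted p = 0.745, 95% interval -1.77 to 1.22). Neither difference was called, nor was that of miR-8110 (1.03 ± 0.75, adjusted p = 0.239).

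**Figure D4:**
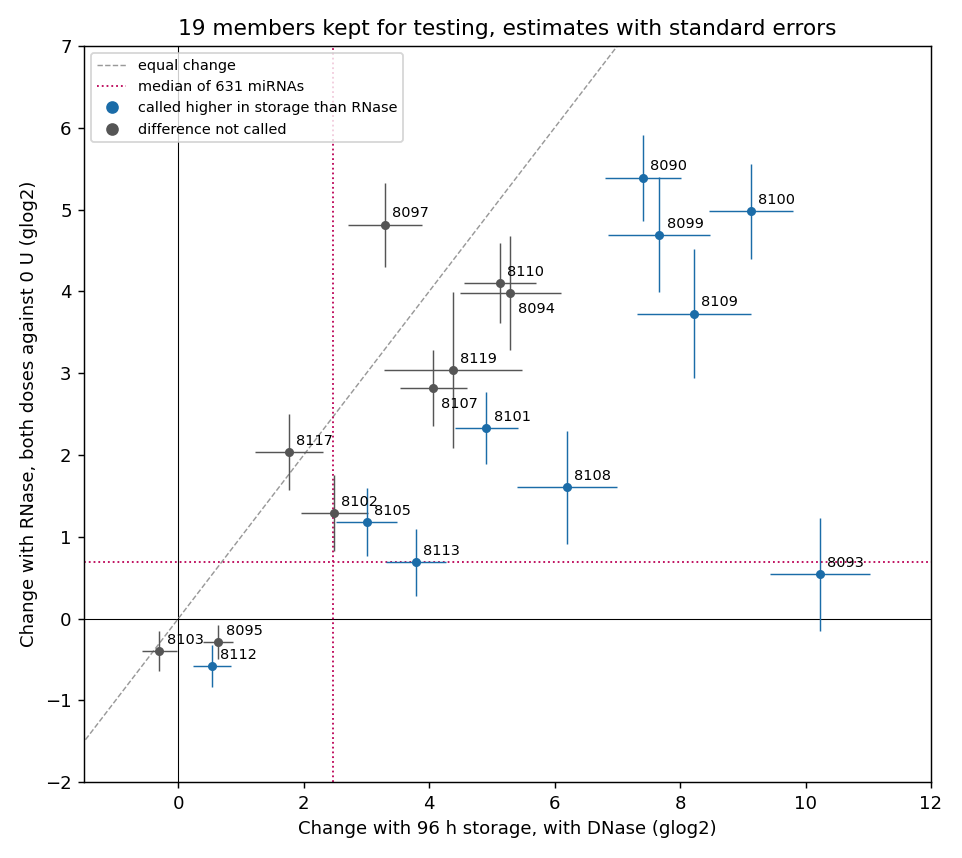
Change with storage (with DNase, x axis) against change with RNase (both doses against 0 U, y axis) on the glog2 scale for the 19 members tested, with standard errors. The dashed line marks equal change, dotted lines give the median of the 631 miRNAs tested and blue marks members with a higher signed change in storage. miR-8093 sat at 10.23 with storage and 0.54 with RNase, and miR-8097 at 3.29 and 4.82.

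Base composition went with signal only in part. The 5 members detected on all arrays had 61.9% to 81.8% G and C, and the 8 detected on none 36.4% to 61.9%. Of these 5, 3 (miR-8110, miR-8102 and miR-8117) held a run of at least 4 G, and none of the 8 did. The member with the most G and C, miR-8109 with 95.2%, was undetected in fresh liver and averaged 612 over the 6 stored arrays. miR-8094 with 42.9% averaged 36.8, and miR-8112 with 70.0% averaged 7.71. The points share the arrays and the probes' design, and no test was made.

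**Figure D5:**
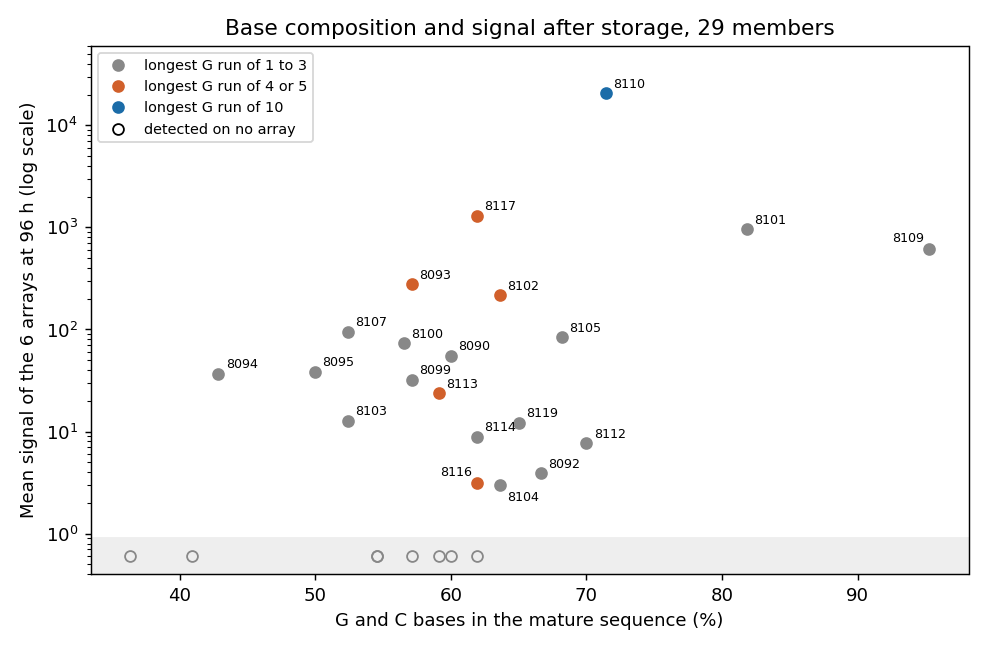
Share of G and C in the mature sequence (x axis) against the mean signal of the 6 arrays at 96 h (y axis, log scale) for the 29 members with a sequence, coloured by the longest run of G. Open symbols in the grey band were detected on no array and have no height; miR-8110, with a run of 10 G, averaged 20575.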

How the data were processed

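Arrays were made with 1 colour (Cyanine 3) from total RNA. Per the file headers, the authors extracted the scans with Agilent Feature Extraction 10.10.1.1, and the values they deposited from it are background-subtracted intensity without normalization, beside a flag that says whether each miRNA was detected (30 spots each, 65 probes for the 31 members). The deposited table of all arrays holds log2 values from the variance stabilizing method vsn, as run by the authors. The other deposited columns used, of flags and names, have no unit. The members follow from their number, but this block of numbers and the gene lists were chosen with earlier results of these data known.

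The signal was the total gene signal where detected and otherwise the sum of the probe signals. vsn was rewritten in Python 3.11.15 (numpy 2.4.6, pandas 2.3.3, scipy 1.17.1) on all 1881 miRNAs, and differed from the deposited values by an SD of 0.0956. Between 96 h and 0 h it moved the median of the miRNAs tested to 2.47, against 3.80 without normalization. Groups followed the sample descriptions. Comparisons used limma 3.58.1 (R 4.3.3) in 1 fit of 8 group means with a variance trend, over the 631 miRNAs detected on at least 5 arrays, with two-sided p adjusted by Benjamini-Hochberg within each of 11 comparisons. A call needed an adjusted p under 0.05 and a change of at least 1. P-values rest on the spread between mice within groups, pooled over all 8 groups and drawn towards the variance trend. They are not the spread of the groups compared alone. The fit holds no term for the mouse, and the number of arrays limits the precision. Arrays of 1 mouse are paired by the animal, and their deviations from the group means correlated by 0.0914 on average (lowest -0.402). Bounds ("at least N-fold") use the lowest detected signal of each dim array, or the member's own signal there where that is higher. All members are named, with single-array values and sequences for those detected on all 3 arrays of a group, and changes with errors for those called with storage with DNase, depletion or RNase at both doses. The fit was tested on simulated data. Alternatives covered the normalization, background, filter, block, test, doses by the titles, detection level and each mouse left out. Sequences and positions are those of RefSeq on GRCm38.p6, and the array design names mm9, from which no coordinate was taken. Of the 1881 miRNAs 1608 matched a mature sequence by name. Figures were drawn with matplotlib 3.10.9.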

Additional observations from a re-analysis of the deposited data

Results flagged for a closer look

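miR-8101 was marked because omission of DNase moved it in opposite directions in every mouse at the 2 times, by 0.36 on the glog2 scale on average at 0 h and by -1.37 at 96 h. The test of the difference between the storage changes without and with DNase gave -1.74 ± 0.72 (limma adjusted p = 0.273, n = 3 mice), which is not called.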

How the results depend on the processing

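Leaving out each mouse in turn gave 16 members called with storage with DNase throughout, 14 to 17 without DNase, 0 to 7 for omission of DNase at 96 h, 0 to 2 for the interaction of storage and DNase, 1 to 3 for depletion, 11 to 14 for RNase at both doses, 6 to 13 at 0.026 U (6 without mouse 9), 11 to 14 at 0.67 U and 6 to 11 for storage minus RNase. With the mouse as a replicate block no call of a member changed (16 with storage with DNase, 13 with RNase), and the deposited normalized values changed none either. Normexp background correction of spot medians was chosen after seeing the data, because the planned column of spot means was absent from the scanner output. With it the counts were 4 and 2 for storage with and without DNase, 0 for omission of DNase at 96 h, 1 for RNase at both doses, 0 at 0.026 U, 3 at 0.67 U and 4 for storage minus RNase. The rank test, which cannot pass adjustment with 3 mice against 3, gave 0 for storage with and without DNase, omission at 96 h, depletion and each dose. Scaling to the 75th percentile of every miRNA on the array (all-miRNA scaling) gave 9 members for omission at 96 h (1 higher, 8 lower), 2 for the interaction and 1 for depletion, and scaling to that of the miRNAs present on each array (common-miRNA scaling) gave 8 for depletion. Quantile normalization gave 1 for the interaction and 5 for depletion. Without normalization depletion gave 0 and storage minus RNase 16. Without the filter the interaction gave 1 and storage minus RNase 16, over 31 members. Fitting only the groups compared gave 1 for omission at 96 h and 6 at 0.026 U. The causes were not tested.

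The median change with storage with DNase over all miRNAs tested was 2.47 as reported, 3.80 without normalization, 1.39 with common-miRNA scaling, 1.04 with all-miRNA scaling, 0.77 under quantile normalization and 0.14 under normexp. Directions turned as follows. miR-8103 went to 1.39 with storage with DNase without normalization, and without DNase to -1.25 with all-miRNA scaling and -1.09 under quantile normalization. In depletion miR-8101, miR-8102 and miR-8103 went to 1.17, 2.09 and 1.89 with common-miRNA scaling, and miR-8102 to 1.16 under quantile normalization. With RNase at both doses quantile normalization gave -0.21 for miR-8102, -0.0615 for miR-8105 and -0.38 for miR-8117, and normexp -0.16 for miR-8102 and -0.35 for miR-8117. At 0.026 U miR-8117 was -0.46 under quantile normalization and -0.55 under normexp. At 0.67 U quantile normalization gave -0.16 for miR-8102, -0.0243 for miR-8105 and -0.31 for miR-8117, and normexp -0.16 for miR-8102 and -0.15 for miR-8117. For storage minus RNase, common-miRNA scaling, all-miRNA scaling, quantile normalization and normexp gave -1.16, -0.94, -1.17 and -0.35 for miR-8090 and -0.87, -0.65, -0.63 and -0.17 for miR-8099. Among these turned values, those of miR-8103 with storage and all of those in depletion met the limits of a call. So did that of miR-8090 under quantile normalization, and the others did not.

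A fixed detection level of 0.901 in signal in place of the flags moved the mean number of members detected to 7.67 and 8.0 at 0 h with and without DNase, 24.7 and 22.3 at 96 h, 8.33 in depleted RNA, 7.33 after 0 U, 13.3 after 0.026 U and 15 after 0.67 U. Members near the limit of detection, such as miR-8108 and miR-8112, have bounds only.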
